A study of Homo sapiens with 12 samples.

Results

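The genes described here are GDF15, STC2, INHBE, ULBP1, NUPR1 and XPOT, 6 of the 60709 genes in the RNA sequencing tables of Molm-14 and HL-60 cells treated with duocarmycin SA (DSA), an alkylator of the DNA minor groove first isolated from Streptomyces bacteria. They are stress-induced genes chosen as having a direction particular to each line. The comparison behind that choice is not named, and it was taken to be the high dose of DSA against control in the 2 lines. Their high-dose values against control, and the contrast of the lines there, are therefore given as a description with no test. The members were matched by gene identifier, and all 6 had enough counts to be tested among the 13422 protein-coding genes that passed a filter on low counts. GDF15 passed only through its 2 high-dose groups. The untreated libraries are the controls of those changes, so the untreated levels of the lines are also a description. On that reading, which is an assumption, only the low-dose libraries were not used by the choice. They were tested against the same controls, apart from GDF15, which is given by its counts. Because the controls had a part in that choice, the low-dose p-values are not fully independent of it.

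Molm-14 and HL-60 are human acute myeloid leukemia (AML) cell lines, the former with monocytic features and an MLL fusion, the latter promyelocytic. Molm-14 cells had no DSA, a low dose of 11.1 pM or a high dose of 100 pM, and HL-60 cells had no DSA, 112.7 pM or 500 pM, for 36 h in every group. Each of the 6 groups had 2 libraries, which makes 12. The controls are labelled as untreated, while the study's methods speak of vehicle. Molm-14 cells grew in RPMI with 10% serum and HL-60 cells in IMDM with 20% serum, so line, dose, medium and serum cannot be told apart. Nothing says that the 2 libraries of a group came from separate cultures, so that p-values reflect the spread of these samples alone, and that spread may be technical.

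The integrated stress response is the background that links these genes. When amino acids run short, proteins misfold or mitochondria fail, kinases phosphorylate the translation factor eIF2, general protein synthesis slows and the mRNA of the transcription factor ATF4 is translated instead. ATF4, often with CHOP (gene DDIT3), then switches on amino acid synthesis and transport, tRNA synthetases and several secreted or surface proteins. GDF15 is a distant member of the TGF-beta superfamily that reduces appetite through its receptor GFRAL in the hindbrain. STC2 encodes stanniocalcin-2, a secreted glycoprotein, and INHBE encodes the beta E subunit of the activins. ULBP1 is a surface ligand of NKG2D, the activating receptor by which natural killer (NK) cells recognise stressed or transformed cells. NUPR1 is a small nuclear protein of the stress response, and XPOT is exportin-t, the karyopherin that carries tRNA out of the nucleus with RanGTP.

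In the 2 lines these genes did not share one direction, and their label as genes with a direction particular to each line held for some of them only. At the high dose STC2, INHBE and ULBP1 were several-fold lower than control in Molm-14 cells and several-fold higher in HL-60 cells. NUPR1 appeared in HL-60 cells from 0 counts and was slightly lower in Molm-14 cells, by about as much as its error. GDF15 was higher in both lines and XPOT lower in both, so these 2 did not have opposite directions.

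On hg38, as annotated by GENCODE 44, the genes lie apart from one another on 5 chromosomes. GDF15 is at chr19:18374731-18389176 on the plus strand, STC2 at chr5:173314723-173328447 on the minus strand and ULBP1 at chr6:149963943-149973715 on the plus strand. NUPR1 is at chr16:28532708-28539008 on the minus strand. INHBE, at chr12:57452323-57459280, and XPOT, at chr12:64404392-64451125, share chromosome 12 and the plus strand. Exons of INHBE overlap an antisense long non-coding RNA, ENSG00000287200, which held 0 to 17 counts per library. The sources used here do not say whether the counting used strand, and reads from this pair then cannot be told apart. NUPR1 overlaps another long non-coding RNA, ENSG00000289754, on the same strand, which was not analysed here. MIR3189 within GDF15 and a pseudogene within XPOT had 0 counts in all 12 libraries. ULBP1 belongs to a family of close copies, and its expected counts were not whole numbers in 3 libraries, as happens when reads are split between similar genes. Those of XPOT were whole numbers in none of the 12 libraries.

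The upstream sequences of the members show which of them carry letters that ATF4 is known to bind. RefSeq promoters on GRCh38.p14 were at hand for 4 of the 6 members, without INHBE and NUPR1. The 250 bases before the start were searched on both strands for the cores TGATGNAA and TGACGCAA, which ATF4 binds together with C/EBP proteins, for the cyclic AMP response element TGACGTCA, for the CCAAT box and for TATAAA. These occurred in 3.14%, 0.478%, 1.65%, 32.0% and 10.7% of 35116 promoters in that order. No 2 matches in a member overlapped. STC2 and ULBP1, which had opposite directions in the 2 lines, and XPOT, which did not, are printed from 5′ to 3′, with matches in capitals. ULBP1, whose 250 bases are at chr6:149963693-149963942 on the plus strand, held TTGCGTCA, which is TGACGCAA on the other strand, 92 to 85 bases before its start. STC2 is shown at chr5:173328448-173328664 on the minus strand, 250 to 34 bases before its start and outside its annotated exons, and held a CCAAT box on the other strand (ATTGG). XPOT, at chr12:64404142-64404391 on the plus strand, held none of these letters.
ULBP1: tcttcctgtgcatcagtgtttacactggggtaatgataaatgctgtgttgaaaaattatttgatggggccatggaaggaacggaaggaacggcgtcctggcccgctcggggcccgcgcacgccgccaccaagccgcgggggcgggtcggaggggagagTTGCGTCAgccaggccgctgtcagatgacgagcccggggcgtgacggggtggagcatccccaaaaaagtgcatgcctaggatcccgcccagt
STC2: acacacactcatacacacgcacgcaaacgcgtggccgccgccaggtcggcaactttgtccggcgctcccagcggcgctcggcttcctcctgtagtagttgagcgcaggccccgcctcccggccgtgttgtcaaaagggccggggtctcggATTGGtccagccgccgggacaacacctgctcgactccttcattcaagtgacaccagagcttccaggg
XPOT: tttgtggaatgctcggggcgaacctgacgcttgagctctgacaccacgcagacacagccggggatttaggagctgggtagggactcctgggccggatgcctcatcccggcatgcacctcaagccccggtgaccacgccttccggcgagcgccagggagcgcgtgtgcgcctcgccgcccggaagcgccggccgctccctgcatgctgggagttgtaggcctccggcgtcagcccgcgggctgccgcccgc
In GDF15 a CCAAT box on the other strand lay 103 to 99 bases and TATAAA 29 to 24 bases before the start. Its 250 bases are not shown because exons of longer transcripts cover 241 of them. A match describes the letters only, and no match says only that these letters are not in this window.

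Library totals ran from 21177424 to 63927449 expected counts, with a median of 35957896.5, and the treated HL-60 libraries were the shallowest. Mitochondrially encoded genes took 1.47% to 1.68% of counts in the Molm-14 controls and 2.72% to 4.09% at the high dose, and 2.22% to 2.47% and then 4.64% to 5.46% in HL-60 cells. This share moved with the dose in both lines, and its part in the results was not tested. The 5 leukocyte and myeloid markers summed to 703 to 898 CPM (counts scaled to a common library size) in Molm-14 cells. Their sums in HL-60 cells were 987 to 1310 CPM. Among them ANPEP, the gene of CD13, was nearly absent from Molm-14 (means of 0.188, 0.072 and 0.241 CPM by rising dose). HL-60 means of ANPEP were 329.2, 480.3 and 491.1 CPM. The other 4 had means of 48.0 CPM or more in every group of both lines. The paper reports CD13 protein on both lines, with less of it on Molm-14. HOXA9 and the other 4 markers of Molm-14 summed to 967 to 994 CPM in its controls and 1490 to 1500 CPM at the high dose, against 61.7 to 63.4 CPM and 147 to 150 CPM in HL-60 cells. LYZ, the monocyte lysozyme, was the highest of these, at 418.5 and 984.2 CPM in Molm-14 and 52.4 and 119.5 CPM in HL-60 cells. FLT3 was close to it in Molm-14 controls, at 396.7 CPM. HOXA9 stood at 119.1 and 123.1 CPM in Molm-14 and at a mean of at most 0.13 CPM in HL-60 cells. The 5 granule genes taken to mark HL-60 summed to 18400 to 18600 CPM in its controls, 14100 to 14400 CPM at the low and 6590 to 6610 CPM at the high dose. MPO, myeloperoxidase, carried that sum (15680, 12340 and 5888 CPM, against 149.0 CPM in untreated Molm-14 cells). Of the other 4, AZU1, ELANE and CTSG were higher in untreated Molm-14 (1554, 871.7 and 465.9 CPM) than in untreated HL-60 cells (209.4, 414.5 and 131.9 CPM) and so do not mark HL-60. Of other cell types, all 4 erythroid markers were at 0 in every library and 4 melanoma markers summed to at most 0.771 CPM. The 4 T cell markers summed to 0.536 to 0.662 CPM in HL-60 controls, 1.73 to 1.78 CPM at the low and 4.27 to 4.54 CPM at the high dose, and were 0.358 to 0.598 CPM in Molm-14 cells. LYZ, MPO and the T cell markers moved with the high-dose results, and their part in these was not tested. Sums in Molm-14 and HL-60 cells were 59.0 to 71.7 and 2.60 to 6.02 CPM for 4 B cell markers and 35.1 to 40.1 and 0.662 to 3.74 CPM for 4 epithelial markers, and those of 4 fibroblast markers were at most 1.75 CPM. The 4 NK cell markers summed to 143 to 179 CPM in Molm-14 cells, nearly all NCAM1, with the other 3 at 0, and to at most 1.42 CPM in HL-60 cells. In bulk libraries like these, fewer cells of a kind and less RNA per cell cannot be told apart.

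Levels are given as CPM after TMM scaling (mean ± SD, n = 2) beside the expected counts. The values of each library are drawn in the plot of levels by library. The floor for a library at 0 is 3 counts, 0.0804 and 0.0509 CPM in the 2 HL-60 controls, and floors and counting intervals cover counting error only.

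**Figure D1:**
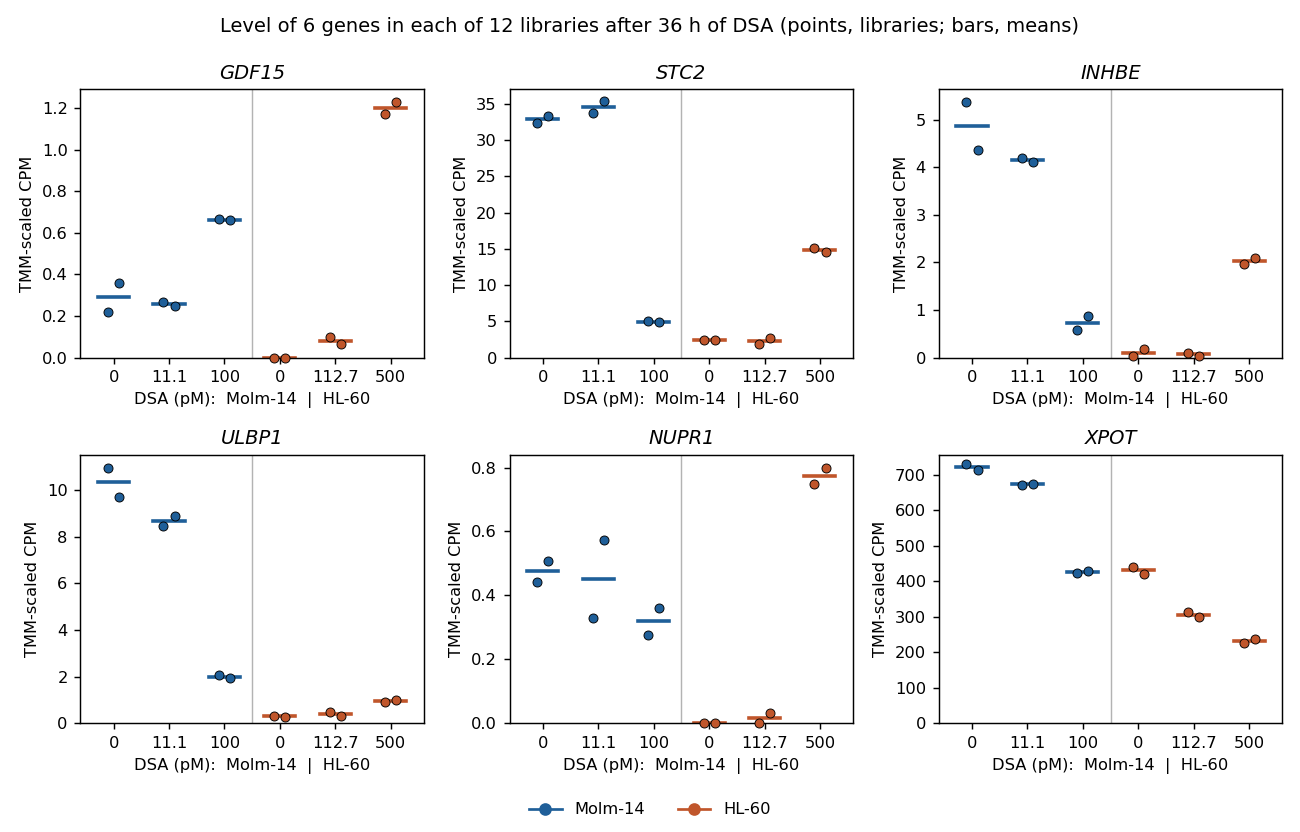
TMM-scaled CPM (vertical axis, from 0 and different for each gene) of the 6 genes by dose of DSA in pM (horizontal axis), Molm-14 in blue and HL-60 in orange. Points are the 2 libraries of a group and bars their mean. STC2, INHBE and ULBP1 drop at 100 pM in Molm-14 and are higher at 500 pM in HL-60 cells, while XPOT steps down in both lines.

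GDF15 was a rare transcript in both lines. Molm-14 cells held 7 and 12 counts of it without DSA, 9 and 9 at 11.1 pM and 24 and 22 at 100 pM. HL-60 cells held 0 and 0 without DSA, 2 and 2 at 112.7 pM and 25 and 40 at 500 pM. In both lines each high-dose library was above all libraries of that line with less or no DSA, and the low-dose libraries of Molm-14 lay within the range of the controls. The means were 0.290 ± 0.0972, 0.257 ± 0.0160 and 0.664 ± 0.00128 CPM in Molm-14 cells, and 0, 0.0818 ± 0.0206 and 1.2 ± 0.0414 CPM in HL-60 cells. The high dose stood 1.18 above control on the log2 scale in Molm-14 cells (SE 0.402). In HL-60 cells it was at least 18.3-fold higher than the floor of 3 counts in each control, and 15.2 times the low dose (95% counting interval 5.67 to 57.5).

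STC2 was the best measured of the secreted factors. Molm-14 libraries had 1026 and 1116 counts at 0 pM and 1133 and 1294 at 11.1 pM, whereas 182 and 162 were left at 100 pM. HL-60 libraries had 92 and 140 counts at 0 pM, 38 and 79 at 112.7 pM, and 324 and 475 at 500 pM. Scaled for depth these were 32.9 ± 0.659, 34.6 ± 1.1 and 4.96 ± 0.113 CPM in Molm-14 cells, and 2.42 ± 0.0650, 2.24 ± 0.582 and 14.9 ± 0.407 CPM in HL-60 cells. The high-dose libraries lay far from all others of their line, below them in Molm-14 cells (−2.73 on the log2 scale, SE 0.0847) and above them in HL-60 cells (2.62, SE 0.103). HL-60 cells at the high dose still held less STC2 than untreated Molm-14 cells, and Molm-14 cells at the high dose held more than untreated HL-60 cells.

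INHBE followed the same outline from a lower level. Molm-14 libraries had 170 and 146 counts without DSA, 141 and 151 at 11.1 pM and 21 and 29 at 100 pM. HL-60 libraries had 1 and 10, then 2 and 1 at 112.7 pM, then 42 and 68 at 500 pM. The means were 4.87 ± 0.714, 4.16 ± 0.0569 and 0.727 ± 0.207 CPM in Molm-14, and 0.0982 ± 0.101, 0.0650 ± 0.0444 and 2.03 ± 0.0869 CPM in HL-60 cells. The high-dose libraries did not overlap the others of their line, and the SD of the HL-60 controls was about as large as their mean. The high dose stood at −2.75 on the log2 scale in Molm-14 (SE 0.255) and at 4.12 in HL-60 cells (SE 0.386). The HL-60 value rests on the second control library, which held 10 of the 11 control counts, and was 6.05 without it and 3.55 without the first control. Against the low dose the HL-60 high dose was 34.4 times higher (95% counting interval 11.5 to 169).

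ULBP1, the NKG2D ligand, stood at 347 and 324.88 expected counts in untreated Molm-14 libraries, at 284 and 325.93 with 11.1 pM and at 75 and 64 with 100 pM. HL-60 libraries had 12 and 16, then 10.44 and 10 with 112.7 pM, then 20 and 33 with 500 pM. As CPM these were 10.3 ± 0.886, 8.68 ± 0.307 and 2.0 ± 0.105 in Molm-14 cells, against 0.297 ± 0.0356, 0.409 ± 0.103 and 0.975 ± 0.0548 in HL-60 cells. In Molm-14 the low-dose libraries lay under both controls and far above the high dose, and in HL-60 cells the high dose lay above the rest. The high-dose change was −2.37 on the log2 scale in Molm-14 (SE 0.141) and 1.74 in HL-60 cells (SE 0.288). Even so, the highest HL-60 library, at 1.01 CPM, stayed under the lowest Molm-14 library, at 1.93 CPM.

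NUPR1 was close to the limit of detection. Molm-14 libraries had 14 and 17 counts without DSA, 11 and 21 with 11.1 pM and 10 and 12 with 100 pM, where the middle group overlapped both others. HL-60 cells had 0 and 0, then 0 and 1, then 16 and 26. The means were 0.475 ± 0.0465, 0.451 ± 0.174 and 0.319 ± 0.0598 CPM in Molm-14, and 0, 0.0168 ± 0.0238 and 0.774 ± 0.0352 CPM in HL-60 cells. In HL-60 cells the high dose was at least 11.8-fold higher than the floor, and it was 39.3 times the low dose with a counting interval from 6.69 to 1590. In Molm-14 cells the high-dose change was −0.58 on the log2 scale with an SE of 0.452.

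XPOT was abundant in every library. Molm-14 cells held 722.9 ± 10.9, 673.8 ± 1.86 and 425.5 ± 4.31 CPM at 0, 11.1 and 100 pM, and HL-60 cells 431.4 ± 13.6, 306.5 ± 11.6 and 232.2 ± 6.12 CPM at 0, 112.7 and 500 pM. No groups of a line overlapped, and the level stepped down at each dose in both. The high-dose change was −0.77 on the log2 scale in Molm-14 (SE 0.0331) and −0.89 in HL-60 cells (SE 0.0342), which is −0.71 when libraries are scaled by total counts alone. Each library rested on 4866.91 expected counts or more.

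**Figure D2:**
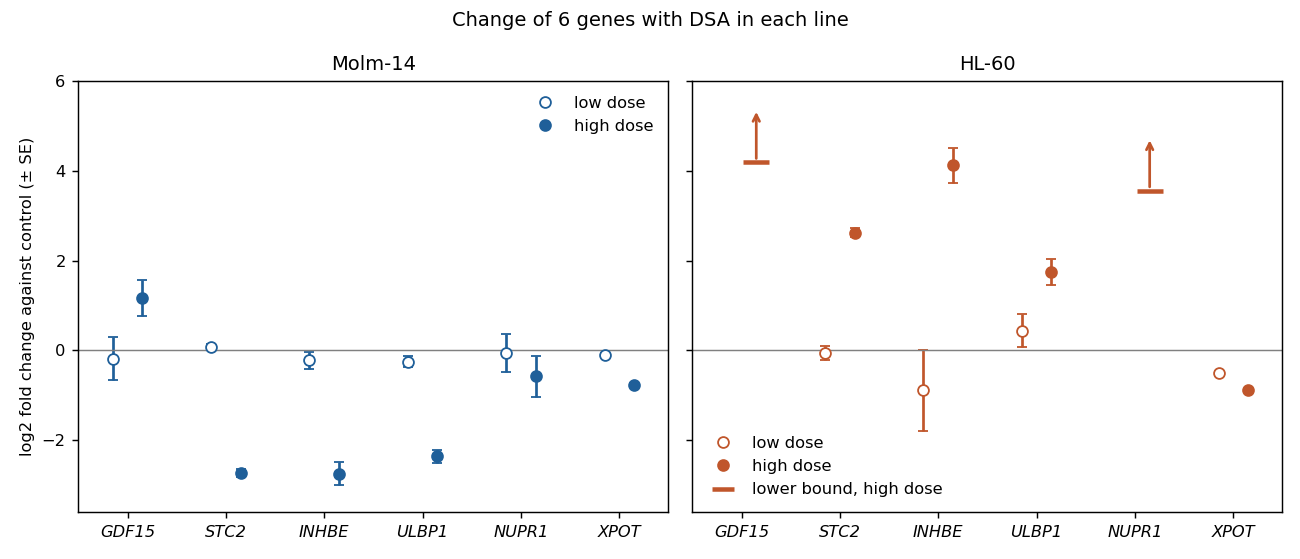
Log2 fold change against the control of the same line (vertical axis, bars ± SE from edgeR) of the 6 genes at the low dose (open points) and the high dose (filled points), 2 libraries per group. In HL-60 cells the high dose of GDF15 and NUPR1 is drawn as a lower bound with an arrow (18.3-fold and 11.8-fold against a floor of 3 counts) and their low dose is not drawn. STC2, INHBE and ULBP1 lie under 0 in Molm-14 and above 0 in HL-60 cells at the high dose.

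Ordered by level over the 6 groups, STC2 and INHBE had the same order apart from neighbouring groups. Untreated and low-dose Molm-14 cells came first, followed by high-dose HL-60 cells, high-dose Molm-14 cells, and then untreated and low-dose HL-60 cells. For both genes the libraries of the last pair overlapped, and the first pair did not overlap but differed by no more than 1.65 CPM (STC2) and 0.706 CPM (INHBE), the latter under the SD of the INHBE controls. For ULBP1 all 3 Molm-14 groups stood above all 3 HL-60 groups, and no neighbours overlapped. For GDF15 high-dose HL-60 cells came first and high-dose Molm-14 cells second, and untreated and low-dose Molm-14 cells overlapped. For NUPR1 high-dose HL-60 cells came first, low-dose Molm-14 cells overlapped the untreated and the high-dose ones, and the last pair, untreated and low-dose HL-60 cells, overlapped at 0. XPOT had nearly the same level in untreated HL-60 and high-dose Molm-14 cells, whose libraries overlapped, and no other neighbours did.

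Between genes, levels were compared as deposited TPM values, which allow for transcript length. In untreated Molm-14 cells the order was XPOT (204 TPM), STC2 (12.3 TPM), ULBP1 (3.64 TPM), INHBE (2.79 TPM), NUPR1 (0.610 TPM) and GDF15 (0.305 TPM), with no overlap between neighbours. Untreated HL-60 cells had the same order down to INHBE, with 107, 1.08, 0.110 and 0.0600 TPM, and GDF15 and NUPR1 at 0. In high-dose HL-60 cells XPOT stood at 66.5 and STC2 at 5.34 TPM, while NUPR1 (1.41 TPM), GDF15 (1.37 TPM) and INHBE (1.35 TPM) overlapped and ULBP1 came last at 0.375 TPM. In high-dose Molm-14 cells ULBP1 (0.695 TPM) and GDF15 (0.710 TPM) overlapped, NUPR1 (0.390 TPM) and INHBE (0.350 TPM) came last, and XPOT (121 TPM) and STC2 (1.65 TPM) still came first.

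All 6 genes were lower in untreated HL-60 than in untreated Molm-14 cells, and for each of them both HL-60 controls lay under both Molm-14 controls. These libraries are the controls of the changes that are taken to have chosen the genes, so the differences carry no test. Over all genes tested, 40.1% were called lower in untreated HL-60 cells and 43.9% higher, and nothing about the 6 genes is read from that. The log2 difference was −3.77 for STC2 (SE 0.0903), −5.13 for ULBP1 (SE 0.185) and −0.75 for XPOT (SE 0.0329). INHBE stood at −5.38 (SE 0.33), from −4.81 to −7.31 when either HL-60 control was left out. Against HL-60 controls at 0 counts, GDF15 was at least 4.42-fold and NUPR1 at least 7.24-fold higher in Molm-14 cells.

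At the low dose of Molm-14, 11.1 pM, none of the 5 genes other than GDF15 passed edgeR's test, in a comparison that called 0.969% of all genes higher and 0.238% lower. XPOT came nearest with a log2 fold change of −0.10 (SE 0.0326, adjusted p = 0.169), and both of its low-dose libraries lay under both controls. ULBP1 stood at −0.25 (SE 0.117, adjusted p = 0.408) and INHBE at −0.23 (SE 0.197, adjusted p = 0.725). STC2, at 0.07 (SE 0.0649, adjusted p = 0.738), and NUPR1 (adjusted p = 0.996) were farther from the threshold. GDF15 had 9 and 9 counts against 7 and 12.

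At the low dose of HL-60, 112.7 pM, XPOT fell by 0.49 in log2 units (SE 0.0338, adjusted p = 1.66e-09 from edgeR). In this comparison 27.4% of all genes were called lower and 24.2% higher. Its controls are taken to have had a part in choosing the genes, so the p-value is not independent of that choice. STC2 stood at −0.06 (SE 0.155, adjusted p = 0.796) and ULBP1 at 0.44 (SE 0.366, adjusted p = 0.392). INHBE (adjusted p = 0.434) and NUPR1 (adjusted p = 0.233) had at most 3 counts over the 2 treated libraries. GDF15 had 2 and 2 counts against 0 and 0, under the floor of 3 counts per library, and entered the fit only through its high-dose groups, so neither a fold nor a p is given. STC2, INHBE, ULBP1 and NUPR1 passed at the low dose in neither line, and their high-dose levels in HL-60 cells were 2.46-fold (ULBP1) or more above the low dose.

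The changes at the low doses differed between the lines for XPOT, by −0.39 on the log2 scale as HL-60 minus Molm-14 (SE 0.0469, adjusted p = 5.06e-06 for the interaction), at doses that themselves differ. Of all genes 19.9% were called lower and 15.4% higher for this difference. Its test also used the controls that the choice is taken to have used. STC2 (adjusted p = 0.592), INHBE (adjusted p = 0.626), ULBP1 (adjusted p = 0.215) and NUPR1 (adjusted p = 0.276) did not pass, and GDF15 is given no test here either.

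The highest dose of Molm-14 and the lowest of HL-60, 100 and 112.7 pM, are close but not equal, so the values are set side by side only. At these doses STC2 stood at 4.96 CPM (Molm-14) and 2.24 CPM (HL-60), where it had been at 32.9 and 2.42 CPM without DSA. ULBP1 was at 2.0 and 0.409 CPM, from 10.3 and 0.297 CPM. XPOT was at 425.5 and 306.5 CPM, from 722.9 and 431.4 CPM.

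The other genes of the same pathways were read from 6 lists that leave out the 6 members. The lists were chosen with earlier results of these libraries known and are described by their counts and medians. Over all genes the median log2 fold change at the high dose was 0.004 for Molm-14 and 0 for HL-60, where 22.9% and 35.8% of genes were called higher and 21.9% and 37.8% lower. Scaling by total counts alone moved the HL-60 median to 0.176 and its calls from 4802 higher and 5075 lower to 6304 and 3376, so HL-60 counts are read relative to that shift.

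Of the 43 ATF4 and CHOP targets, 41 were lower and 2 higher in Molm-14 cells at the high dose (median −0.995 on the log2 scale). The 2 higher became 1 without the first control, and 0 without the second control or the first high-dose library. In HL-60 cells 20 were lower and 15 higher (median −0.09), and 16 and 20 with total-count scaling. ASNS, asparagine synthetase, fell by 2.44 in Molm-14 (SE 0.0412, adjusted p = 4.02e-18 from edgeR) and by 0.73 in HL-60 cells (SE 0.0436, adjusted p = 2.13e-11). PHGDH and PSAT1 of serine synthesis fell by 1.75 each in Molm-14, and SLC7A5, a transporter of large amino acids, by 1.42 there and by 0.60 in HL-60 cells. PCK2, the mitochondrial phosphoenolpyruvate carboxykinase, fell by 1.22 in Molm-14 (SE 0.0436) and rose by 1.80 in HL-60 cells (SE 0.0713, adjusted p = 6.73e-14). ATF3, a transcription factor of the same response, rose by 0.25 in Molm-14 and by 2.07 in HL-60 cells. IARS1, isoleucyl-tRNA synthetase, fell by 0.61 and 0.79.

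The direction pattern of STC2, INHBE and ULBP1 was found in 13 of these 43 genes, which were lower in Molm-14 and higher in HL-60 cells at the high dose, and in 471 of all 13422. Among them, picked by their values, were TRIB3, a pseudokinase that restrains ATF4, CHAC1, an enzyme that degrades glutathione, and DDIT3 itself. CHAC1 fell by 2.72 in Molm-14 (SE 0.11) and rose by 0.81 in HL-60 cells (SE 0.159). TRIB3 fell by 1.51 and rose by 0.48, and DDIT3 fell by 0.33 and rose by 1.40. The pattern of XPOT, lower in both lines, was found in 20 of the 43 and in 1998 of all 13422 genes. For the difference between the lines 38 of the 43 were called higher in HL-60 cells and 2 lower, where 25.1% of all genes were called higher and 30.3% lower. With total-count scaling this turned over all genes, from 3373 higher and 4067 lower to 4538 and 2638.

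**Figure D3:**
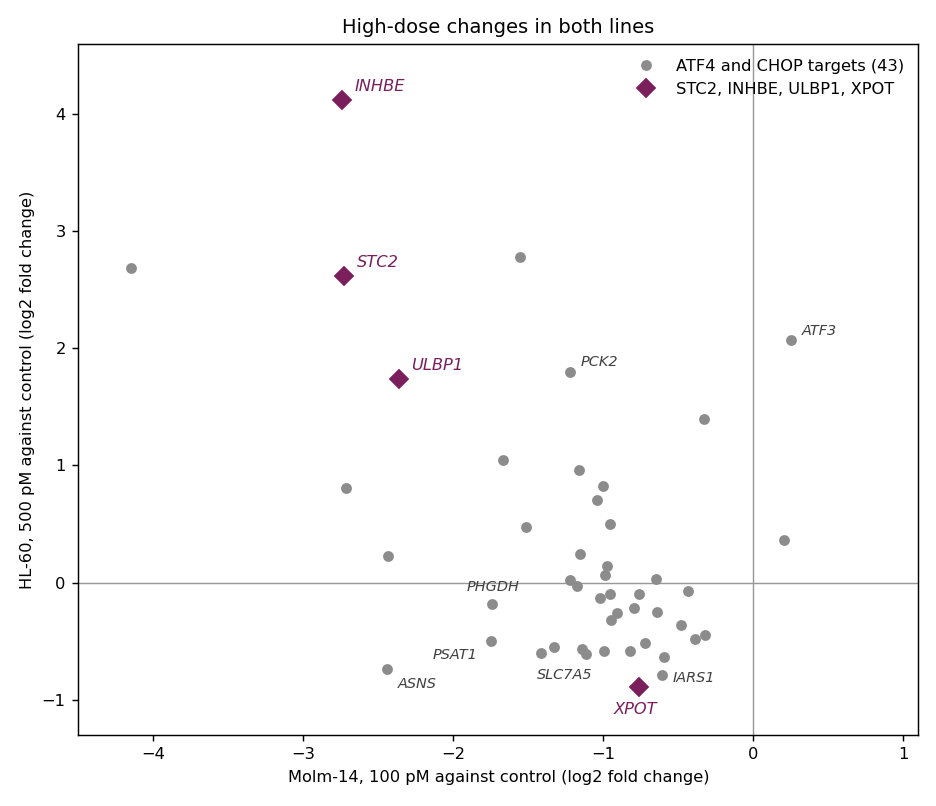
Log2 fold change at 100 pM against control in Molm-14 (horizontal axis) and at 500 pM against control in HL-60 cells (vertical axis) for 43 ATF4 and CHOP targets (grey) and for STC2, INHBE, ULBP1 and XPOT (purple diamonds). Each point is fitted by edgeR to 2 libraries per group. STC2, INHBE and ULBP1 lie in the upper left, lower in Molm-14 and higher in HL-60 cells, where 13 of the 43 genes were called in both directions, and XPOT lies in the lower left with 20 of the 43. GDF15 and NUPR1 are not drawn because their HL-60 controls had 0 counts.

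ATF4 mRNA itself was lower in both lines, by 0.61 on the log2 scale in Molm-14 (SE 0.0393, adjusted p = 3.96e-10 from edgeR) and by 0.69 in HL-60 cells (SE 0.0397, adjusted p = 1.44e-11). ATF4 is controlled mainly by translation, which these libraries do not measure. Counting ATF4 and its upstream regulators, 4 of 13 were lower and 3 higher in Molm-14 cells (1 higher without the second control). In HL-60 cells 8 were lower and 3 higher, or 6 and 4 with total-count scaling. XBP1, a transcription factor of the unfolded protein response, fell by 0.62 and 0.45, and HSPA5, the chaperone BiP, rose by 0.12 in Molm-14 and fell by 0.85 in HL-60 cells.

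Among ligands of NK cell receptors, 11 of 13 could be tested. At the high dose Molm-14 cells had 2 higher and 3 lower (median −0.04), beside 22.9% and 21.9% of all genes. HL-60 cells had 8 higher and 2 lower (median 1.45), or 10 and 1 with total-count scaling, beside 35.8% and 37.8%. ULBP2, a paralogue of ULBP1, rose by 1.94 in HL-60 cells (SE 0.261, adjusted p = 1.92e-06 from edgeR), from 0.559 to 2.08 CPM, and stood at 2.12 and 2.08 CPM without and with the high dose in Molm-14 cells. MICB, another NKG2D ligand, rose by 0.75 in HL-60 cells (SE 0.0669) and was at 24.8 and 24.5 CPM in Molm-14 cells. ULBP3, another paralogue, was higher in HL-60 cells with 7 and 26 counts at the high dose against 9 and 12 in the deeper controls (log2 fold change 1.45, adjusted p = 0.00364), and MICA in neither line (adjusted p = 0.273 and 0.0736). CD48, which binds the NK receptor 2B4, rose by 0.93 in Molm-14 and by 1.46 in HL-60 cells, and NECTIN2, a ligand of DNAM-1, rose by 1.48 in HL-60 cells. The only gene of this list lower in Molm-14 and higher in HL-60 cells was PVR, another DNAM-1 ligand (log2 fold change −0.19 and 0.15). In Molm-14 cells the log2 fold changes of ULBP2, ULBP3, MICA and MICB were −0.04, 0.08, 0.21 and −0.02, none of which passed, beside −2.37 for ULBP1. RAET1E, a further paralogue and one of the 8 called higher in HL-60 cells, was so on 7 and 7 against 1 and 1 counts (adjusted p = 0.00109). RAET1G and RAET1L had at most 2.06 counts in a library. The number higher in Molm-14 was 1 instead of 2 with DESeq2 or limma-voom, or without either control or the second high-dose library, and the number lower was 1 instead of 3 without the first control or the first high-dose library.

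Of the TGF-beta superfamily, to which GDF15 and INHBE belong, 15 of 21 genes could be tested. At the high dose 4 were higher and 2 lower in Molm-14, where leaving out 1 library gave 0 to 1 lower without either control or the second high-dose library, and in HL-60 cells 8 were higher and 1 lower (2 without the first control or the second high-dose library). FST, which encodes the activin antagonist follistatin, rose by 2.25 in HL-60 cells (SE 0.208, adjusted p = 1.27e-08 from edgeR), ACVR1, a type I receptor, by 1.74, and RET, the signalling partner of the GDF15 receptor, by 1.13. GFRAL had 0 counts in all libraries. The other inhibin and activin subunits were hardly detected, with at most 2 counts of INHA, 10 of INHBA, 7 of INHBB and 6 of INHBC in any library.

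Of other factors secreted under stress, 14 of 19 could be tested, with 5 higher and 3 lower in Molm-14 (median 0.09) and 9 higher and 3 lower in HL-60 cells (median 0.90). ADM2, the peptide hormone intermedin, fell by 2.02 in Molm-14 (SE 0.0839, adjusted p = 8.07e-13 from edgeR) and rose by 3.14 in HL-60 cells (SE 0.197, adjusted p = 4.66e-11). VEGFA, the vascular growth factor, fell by 0.77 and rose by 0.86, and METRNL, a secreted meteorin relative, fell by 0.27 and rose by 0.93. These 3 were the only genes of the list with that pair of directions. STC1, the paralogue of STC2, had at most 2 counts in any library, and FGF21 had 2 counts in one high-dose HL-60 library and 0 in the rest.

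Of the karyopherins and Ran cycle genes, the machinery that XPOT belongs to, 13 of 15 were lower and 1 higher in high-dose Molm-14 (median −0.21), and 14 were lower and none higher in HL-60 cells (median −0.35). The same 13 were lower in both lines. RCC1, which loads Ran with GTP, fell by 0.49 (SE 0.0333, adjusted p = 8.11e-10 from edgeR) and 0.92 (SE 0.033, adjusted p = 1.69e-14), and RAN by 0.33 and 0.73. XPO1, the main protein exportin, fell by 0.19 in Molm-14 and by 0.93 in HL-60 cells, and CSE1L, the export receptor of importin alpha, by 0.35 and 0.67. For the difference between the lines 10 were lower in HL-60 cells and none higher, where 30.3% of all genes were called lower and 25.1% higher. Total-count scaling turned the all-gene calls for that difference, from 3373 higher and 4067 lower to 4538 and 2638.

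At the low dose of Molm-14, 9 of the 43 ATF4 and CHOP targets were lower and none higher, where 0.238% of all genes were called lower and 0.969% higher. That count was 0, 2 and 1 without the first control, the second control and the first low-dose library. Of the secreted factors 1 was lower, and none without the first control, and in the other 4 lists no gene was called. In low-dose HL-60 cells 24.2% of all genes were called higher and 27.4% lower. Total-count scaling moved these calls from 3254 higher and 3683 lower to 4231 and 2696. The list counts that follow are a description beside those shares. Of the 43 ATF4 and CHOP targets 26 were lower and 4 higher, or 21 and 6 with total-count scaling. Of the 15 karyopherin and Ran genes 8 were lower and none higher (1 higher without the first low-dose library, 6 lower and 3 higher with total-count scaling). Of the 11 NK ligands 4 were higher and none lower (1 lower without the second control). For the regulators of ATF4 the low-dose HL-60 counts were 2 higher (0 without the second low-dose library, 1 without any one of the other 3 libraries) and 8 lower (5 with DESeq2), for the secreted factors 3 and 2, and for the TGF-beta superfamily 5 and 2 (3 higher without the first low-dose library, 1 lower without the first control or the second low-dose library).

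**Figure D4:**
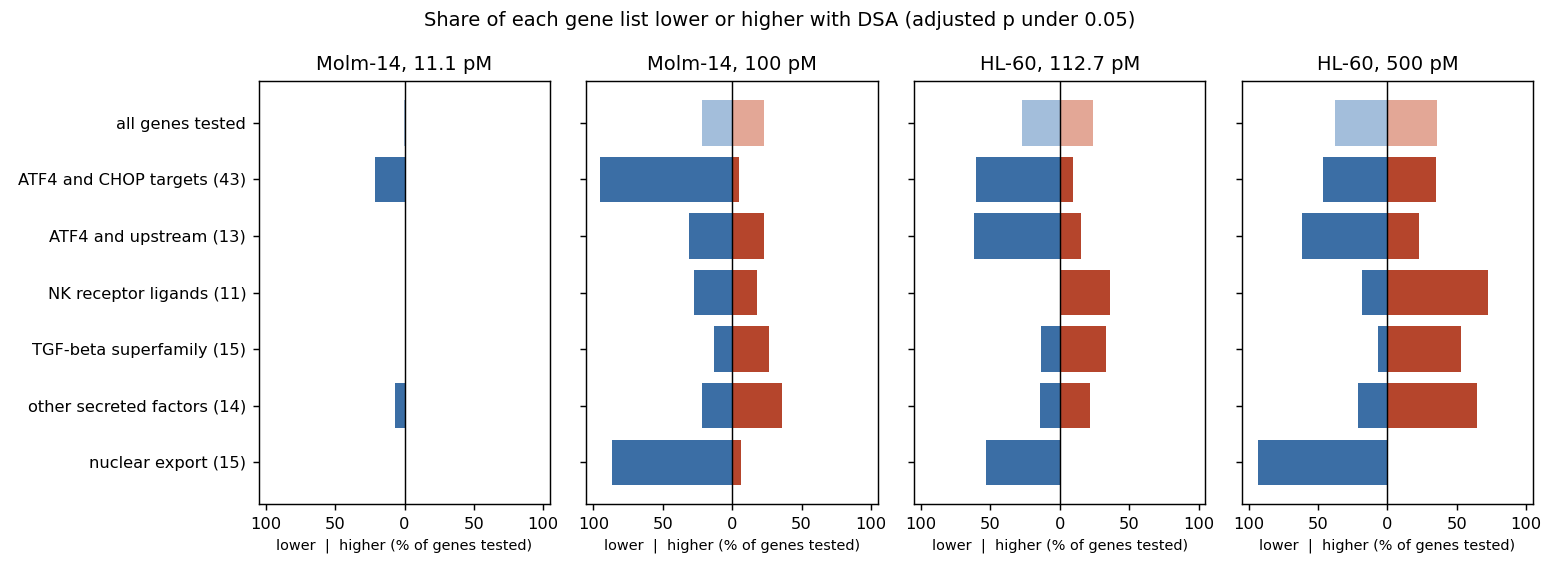
Share of each gene list called higher (red, to the right) or lower (blue, to the left) at an adjusted p under 0.05, in percent of the genes tested, by line and dose, with the number of genes tested in brackets. The pale bars give the same share of all genes tested. The ATF4 and CHOP targets are nearly all lower in Molm-14 at 100 pM and divided in HL-60 cells at 500 pM, and the nuclear export genes are mostly lower in both.

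Among themselves the members fell into groups of like profile. After each library was set against the controls of its line, the Pearson r over the 12 libraries was 0.955 between STC2 and INHBE, 0.955 between STC2 and ULBP1 and 0.904 between INHBE and ULBP1. GDF15 was closest to NUPR1 (r = 0.911) and opposed to XPOT (r = −0.835), and XPOT had no likeness to STC2 (r = −0.078) or ULBP1 (r = 0.004). The libraries share lines, doses and controls, so these values are a description. They include the high-dose libraries, whose directions are taken to have chosen the members, so likeness is in part built in. For GDF15 and NUPR1 the HL-60 controls were at 0 counts.

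By the same measure the 3 genes most like each member over the 12 libraries were taken from those averaging 50 counts or more. For STC2 they were VEGFA (r = 0.992), DDIT4 (r = 0.985), an inhibitor of mTORC1, and CEP55 (r = 0.984). VEGFA (r = 0.971) and ADM2 (r = 0.970) also came first for INHBE, before ZDHHC13 (r = 0.963). For ULBP1 they were KIF21B, TMEM268 and ZBED3 (r = 0.993, 0.991 and 0.988), with smaller changes, high-dose log2 changes of −0.67 to −0.81 (Molm-14) and 0.39 to 0.47 (HL-60). GDF15 was followed by HIVEP3, FOSL2 and SQSTM1 (r = 0.995, 0.993 and 0.992), with high-dose changes of 0.31 to 0.42 on the log2 scale (Molm-14) and 1.54 to 1.98 (HL-60). NUPR1 was followed by TMEM154, PCDH12 and OSBPL3 (r = 0.989, 0.984 and 0.984), whose change in high-dose Molm-14 cells was −0.20 to −0.07. XPOT was followed by DAZAP1, an RNA-binding protein, HSPA9, the mitochondrial chaperone mortalin, and ARHGAP11A (r = 0.995, 0.992 and 0.991), with high-dose changes of −0.36 to −0.65 (Molm-14) and −0.41 to −0.68 (HL-60).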

How the data were processed

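Expected counts per gene of 12 libraries, as deposited, were analysed. The authors trimmed reads with Trim Galore 0.60, mapped them to hg38 with STAR 2.7 and estimated expected counts and TPM with RSEM 1.31 on GENCODE release 31, per the labels and methods, without filter or further scaling. Each table has 60754 rows, of which 45, the Y-chromosome copies of pseudoautosomal genes, were dropped. Of 60709 identifiers, 60261 matched GENCODE 44, which gave symbols and positions. The deposited TPM values were used only to order genes.

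Counts were rounded. edgeR 4.0.16 in R 4.3.3 kept 13422 of 19868 protein-coding genes of level 1 or 2 by filterByExpr, scaled by TMM and fitted 1 mean for each of the 6 groups to the 12 libraries. Comparisons were made by glmQLFTest with Benjamini-Hochberg adjustment. Calls had an adjusted p under 0.05. The SE is the log2 fold change divided by the square root of F. The study's methods name limma-voom, which was an alternative, with DESeq2 1.42.0, RLE factors, total counts alone, no filter, a 50-count minimum mean, genes of all types, only the libraries compared, the replicate block, a fold over 2 as well and leaving out each library. The steps were tested on simulated data. Replicates differed by more than sampling noise (chi-square per gene 2.22 to 3.97), so none was a copy of the other. Libraries made from the same RNA or culture can also differ by this much, so that is not excluded. Same-numbered deviations correlated at −0.083 to 0.178, so numbers were not used as pairs in the main fit. Correlations this weak cannot exclude that same-numbered samples were prepared together. The test between untreated lines was fitted, but is not used for the 6 genes, whose choice is taken to have used the controls.

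The members, lists and tests were chosen with earlier results of these data known. Named genes are the 6 members, up to 4 genes per list with the smallest p in a high-dose comparison, the 3 genes most like each member by Pearson r of log2 CPM (prior count 2), and overlapping or paralogous genes. Other genes carry a remark that they were picked by their values, apart from marker genes and the values given for an already named gene. A further list and motif are not reported here, and the list is still in the numbers of list counts that moved. Depth runs from 21177424 to 63927449 counts, so genes with few counts have the largest error.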

Additional observations from a re-analysis of the deposited data

Results flagged for a closer look

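The change with DSA differed between the lines for several of the 6 genes. At the high doses every treated library moved one way in Molm-14 and the other way in HL-60 cells. This held for STC2, with a difference of 5.35 on the log2 scale (HL-60 minus Molm-14 change), for INHBE (6.87), for ULBP1 (4.10) and for NUPR1 (8.30, a fitted value against HL-60 controls at 0 counts that is no bound). These differences were not tested, because the high-dose changes are taken to have chosen the genes. For NUPR1 the Molm-14 change was −0.58 with an SE of 0.452, about as much as its error. At the low doses the difference passed edgeR's test for XPOT (−0.39, SE 0.0469, adjusted p = 5.06e-06), against controls that the choice is taken to have used. The fitted difference of GDF15 was 4.67, a value that rests on 2 and 2 counts against 0 and 0 in HL-60 cells and is no bound. GDF15 entered the fit only through its high-dose groups, so no test of it is given. The doses of the lines differ throughout.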

How the results depend on the processing

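No direction of the 6 genes that had passed the threshold was reversed. Without a filter on low counts XPOT at the low dose of Molm-14 passed (−0.11, adjusted p = 0.0322). With a fold over 2 asked for as well, XPOT fell short of the threshold at the low dose of HL-60 (−0.49). So did its difference between the lines at the low doses (−0.39). Between untreated lines the log2 difference of XPOT, −0.75 under this setting, was also less than that fold. That value is a description with no test, because the choice of the genes is taken to have used the controls. The fitted values of GDF15 rest on 4 counts against controls at 0, are no bounds and support no call. Its low-dose value in HL-60 cells ran from 4.31 to 4.77 when 1 library was left out and from 3.21 to 4.52 under the other settings, and its difference between the lines from 4.28 to 4.97 and from 3.36 to 4.69, the latter with 4.58 from DESeq2, with the lowest values from limma-voom. The replicate number as a block moved no member across the threshold: XPOT at the low dose of HL-60 was −0.49 with an adjusted p of 4.41e-09 under the replicate block.

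Of 56 list counts, 39 moved by over 1.5 times with the fold threshold, 10 with DESeq2, 9 without the filter, 5 each with total counts, the 50-count minimum and only the libraries compared, 4 with RLE factors, 3 with all gene types, 1 each with limma-voom and the replicate block (NK ligands higher in high-dose Molm-14, 1 instead of 2), and 33 of 224 values on leaving out 1 library. With a fold over 2, 21 ATF4 and CHOP targets were lower in high-dose Molm-14, and 6 higher and 0 lower in HL-60 cells. Those lower in low-dose Molm-14 were 14 with DESeq2, 18 without the filter and 14 with only the libraries compared, against 9. Over all genes, the fold threshold left 442 higher and 98 lower in high-dose Molm-14, 2213 and 275 in high-dose HL-60, 1 and 2 in low-dose Molm-14, 748 and 39 in low-dose HL-60, 1352 and 296 for the high-dose difference, 419 and 32 for the low-dose difference and 2212 and 2763 between untreated lines. Genes higher in low-dose Molm-14 were 130, 86 with DESeq2 and 308 without the filter, and 3 without the first control. The low-dose difference was 2069 higher and 2674 lower, and 2036 and 1589 with DESeq2. With 2 libraries per group and few counts, changes of NUPR1 and INHBE at the low dose of HL-60 were not detectable at this depth.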
